A study of Oikopleura dioica with 8 samples.

Results

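In ribosome profiling a nuclease removes the mRNA that no ribosome covers, and the ribosome protected fragments (RPF, or footprints) that are left are sequenced. Set against total RNA of the same sample, the RPF reads of a gene show how heavily its mRNA was loaded with ribosomes, and the ratio is called the translational efficiency (TE). *Oikopleura dioica* is a planktonic tunicate that lives and feeds inside a house of secreted proteins, and crowding holds it in a reversible growth arrest (stasis). Many of its mRNAs receive a spliced leader, a short RNA joined to the 5′ end by *trans*-splicing, among them the mRNAs of ribosomal proteins and translation factors that in vertebrates start with a terminal oligopyrimidine (TOP) motif and are translated under the control of the growth kinase mTOR.

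The libraries described here are the 4 of 8 in the series that were made from animals released from stasis. Whole animals were arrested by keeping them at the density of day 2 with evening meals alone, were moved to normal density on day 7, and were collected 30 min later. The labels give 2 release samples, each with 1 RPF and 1 total RNA library, and name no strain, sex or genotype. Each sample was a pool of whole animals, total RNA came from a part of each pool, and the RPF lysates were made without cycloheximide, the drug often used to hold ribosomes in place. The question asked of these libraries is which mRNAs were rich or poor in footprints 30 min after release, and no other state was compared.

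The table held 17212 gene models, and the 14595 with at least 100 reads over all 8 libraries were tested. The RPF libraries held 1240592 reads in replicate 1 and 308680 in replicate 2, and the total RNA libraries 15801289 and 22839600. At that depth 8703 of the tested gene models had at least 10 RPF reads in replicate 1 and 3088 in replicate 2, against 14584 and 14587 in total RNA. Replicate 2 of RPF had 0 reads for 4106 of them and replicate 1 for 994, and 3 reads, the most that a count of 0 allows, were worth 2.98 CPM in replicate 1 and 14.8 CPM in replicate 2. CPM are reads scaled to a common library size, here after TMM, a method that sets the bulk of gene models about equal between libraries. TE is RPF CPM over total RNA CPM of the same replicate, a relative value and not an absolute one. The median TE of all tested gene models was 0.870 in replicate 1 and 0.686 in replicate 2. A TE below 1 is thus not by itself a TE below that of most gene models.

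Names came from the study's own annotation and were at hand for 1037 of the tested gene models. The TOP genes were listed in full. The other names, and the oocyte and spliced leader classes, came from the first 1998 entries of a table that the study ordered by the loss of TE under the mTOR inhibitor Torin 1 in other animals. The tissue and family lists below therefore hold the members with the largest such losses, not every member in the genome, and their medians may not stand for the whole family.

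The total RNA libraries were alike (Pearson r = 0.992 across 14592 gene models), and the RPF libraries less so (r = 0.816 across 10288). TE of replicate 1 and replicate 2 correlated with r = 0.585 across 10285 gene models detected in all 4 libraries, of which 37.2% differed by more than 2-fold between the replicates. For the 3056 that had 10 or more reads per library r was 0.786, and 18.8% differed by more than 2-fold. Genes are not independent replicates, and each pair of libraries shares its depth, so these values are a description of the agreement. In the plot of TE against TE the 3056 gene models follow the diagonal, and the ribosomal protein genes lie mostly below 1 on both axes while the muscle genes lie mostly above 1.

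**Figure D1:**
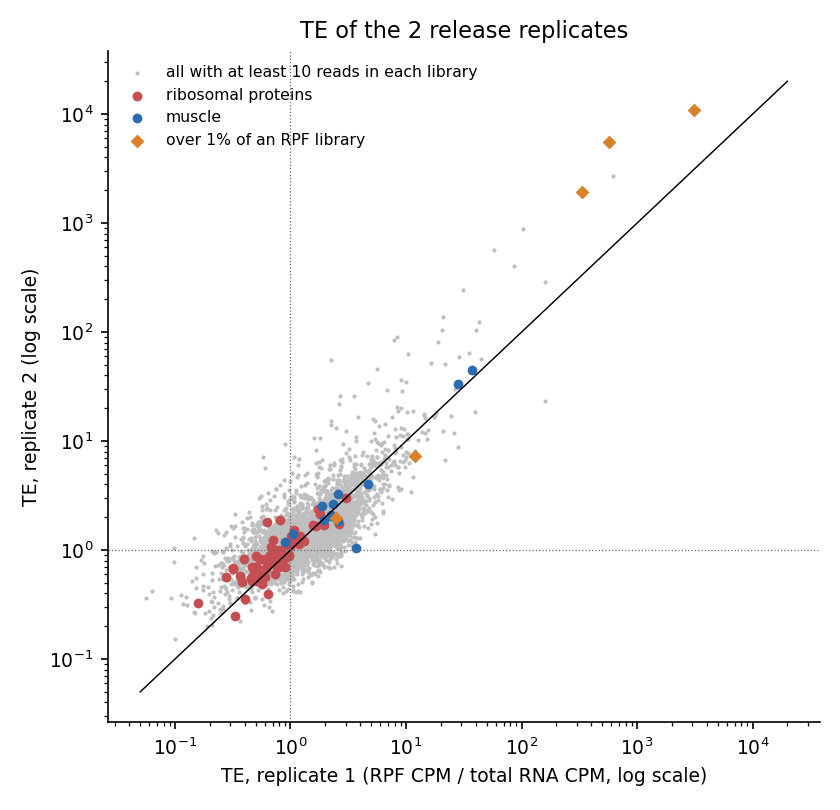
TE of each gene model with at least 10 reads in each release library (grey, 3056 gene models), replicate 1 on the horizontal and replicate 2 on the vertical axis, both on log scales. The solid line marks equal values and the dotted lines a TE of 1. Ribosomal proteins, muscle genes and the gene models that hold over 1% of an RPF library are coloured, and 3 of the latter have a TE above 300 in both replicates.

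A few gene models took a large share of the RPF reads. GSOIDT00008149001, which has no name in the sources used here, held 12.6% of the RPF reads of replicate 1 and 30.05% of those of replicate 2, with 0.00689% and 0.00581% of the total RNA reads. Its TE was 3088 in replicate 1 and 10794 in replicate 2, and it passed the test as higher in RPF with an adjusted p of 5.34e-10. GSOIDT00007125001 (1.63% and 7.26% of the RPF reads, TE 567 and 5567) and GSOIDT00004011001 (0.565% and 1.63%, TE 331 and 1931) had the same pattern, with the higher share in replicate 2. In contrast, GSOIDT00014076001 (2.69% and 1.13%, TE 11.8 and 7.24) and GSOIDT00006403001 (1.38% and 0.775%, TE 2.48 and 1.95) were also among the gene models with the most total RNA, and their share was higher in replicate 1. Together these 5 gene models held 18.8% and 40.8% of the RPF reads, and 1.34% and 1.16% of the total RNA reads. Whether all of these RPF reads came from mRNA covered by ribosomes was not tested.

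Of the gene models with at least 10 RPF reads per library, 5 had 3 or fewer reads in each total RNA library. GSOIDT00007127001 had 481 and 684 RPF reads and 1 and 0 total RNA reads. GSOIDT00002977001 had 62 and 74 RPF reads and 0 total RNA reads in both replicates. The other 3, GSOIDT00014256001, GSOIDT00018137001 and GSOIDT00002982001, had 22 to 65 RPF reads in replicate 1 and 35 to 81 in replicate 2. With so few total RNA reads the TE of these gene models is no measure of ribosome loading. In all, 50 gene models with at least 10 RPF reads per library had a TE above 10 in both replicates, a limit chosen after the values were seen, and 2 of the 50 have a name. Those 50 held 17.9% and 42.3% of the RPF reads with 0.295% and 0.213% of the total RNA reads, and 3 of them had 0 reads in a total RNA library. The 100 gene models with the most reads held 40.5% and 56.9% of the RPF reads, and 23.3% and 23.6% of the total RNA reads.

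**Figure D2:**
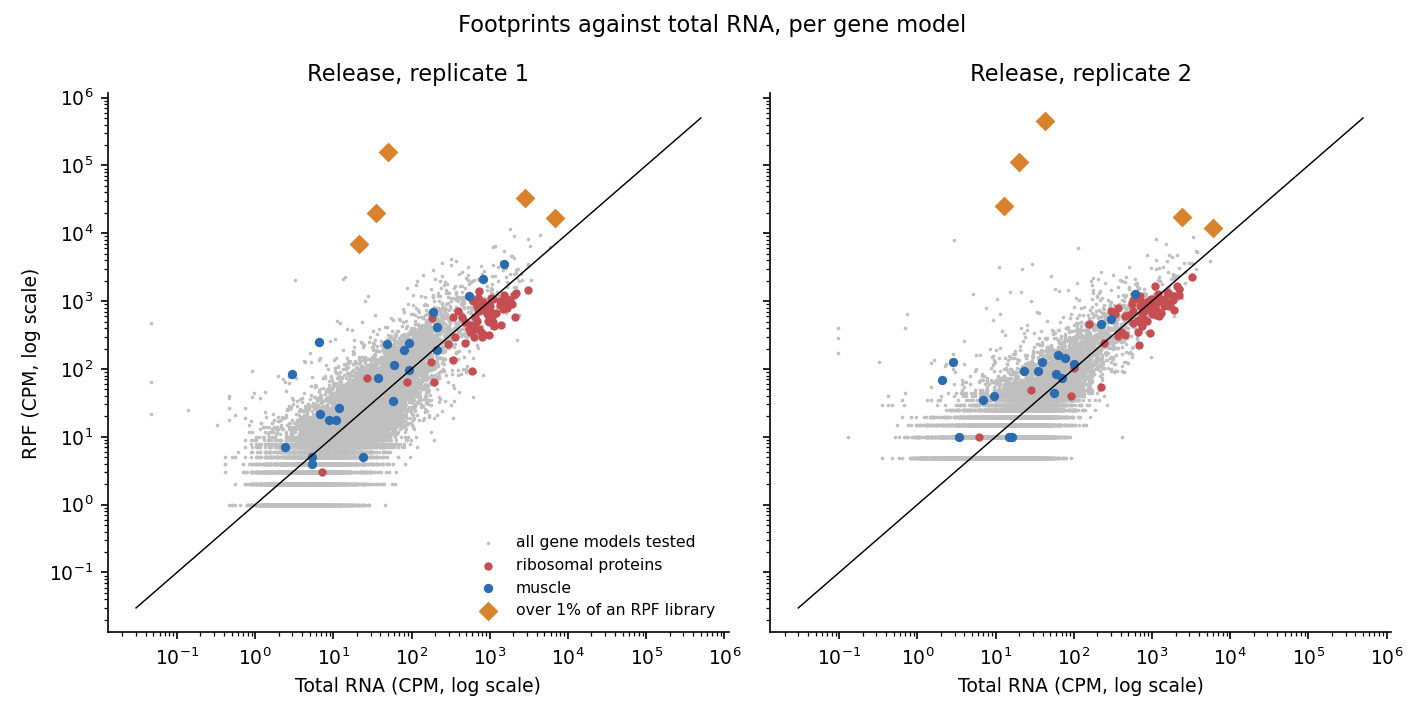
RPF CPM against total RNA CPM of each gene model with reads in both libraries of a replicate, on log scales, with the line of equal CPM. Orange diamonds mark the 5 gene models with over 1% of an RPF library, 3 of which stand far above the line in both panels. Ribosomal proteins (red) lie mostly below the line at the high end of total RNA, and the rows of points at the bottom of each panel are gene models with 1, 2 or 3 RPF reads.

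Of the 14595 gene models, 2270 (15.6%) had more RPF than total RNA at an adjusted p under 0.05 and 2059 (14.1%) had less (edgeR's quasi-likelihood test, Benjamini-Hochberg adjusted). TE was above 1 in both replicates for 2003 of the first and below 1 in both for 2031 of the second. The test assumes the same variance for both assays, though the RPF libraries agreed less well than the total RNA libraries. These directions are relative to the bulk of gene models, whose median log2 ratio was -0.21. Scaled to library totals, where the gene models with very many RPF reads count in full, the median was -1.03, with 671 higher (4.6%) and 5681 lower (38.9%), so that 10.6% of the calls were higher in place of 52.4%. With the replicate as a block, which pairs the libraries of 1 pool of animals, 1036 (7.1%) were higher and 681 (4.67%) lower, of which 1030 and 678 were also called without it. Leaving out a total RNA library lowered the counts the most. Without total RNA replicate 1 there were 268 higher and 75 lower, and without replicate 2 there were 177 and 44. Leaving out RPF replicate 1 gave 1061 and 1162, and leaving out RPF replicate 2, the shallower, gave 3324 and 3549, where the single RPF library left is assumed to vary like the total RNA libraries.

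In replicate 1 the median TE was nearly level over most of the range of total RNA. When gene models were put in deciles by the total RNA of the other replicate, the median TE of replicate 1 lay between 0.806 and 0.863 in the first 9 deciles and was 1.11 in the highest. In replicate 2 the median was 0 in the lowest 3 deciles, where 77.4%, 64.4% and 51.2% of gene models had no RPF read, was 0.6 in the fourth, lay between 0.721 and 0.828 in deciles 5 to 9, and was 1.01 in the highest. A low TE could thus not be told from missing reads in the lowest 3 deciles of replicate 2 at this depth. The same held for most gene models with 0 RPF reads in deciles 4 and 5 (35.2% and 25.3%). Median total RNA there was 9.47 and 13.8 CPM, below the 14.8 CPM that 0 reads allow. Among the gene models with 10 or more reads in each library, the lowest decile had a median TE of 3.16 and 4.33 and the highest 1.00 and 1.01, since a gene model with little total RNA passes that limit only with many footprints.

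**Figure D3:**
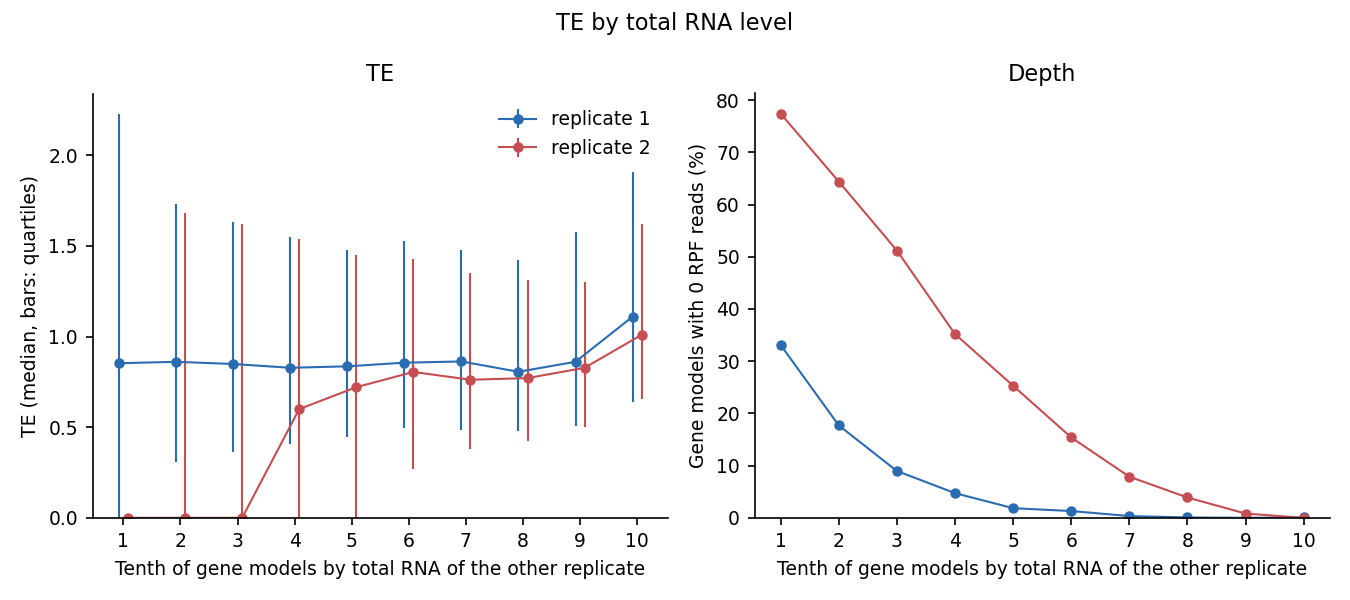
Median TE with quartiles (left) and the percentage of gene models with 0 RPF reads (right) in deciles of the tested gene models ordered by total RNA of the other replicate. The medians of replicate 1 are level up to the ninth decile and rise to 1.11 in the highest, and those of replicate 2 leave 0 in the fourth decile, where its percentage without RPF reads is 35.2%.

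Ribosomal proteins build the large and small ribosomal subunits, and their mRNAs are among the most abundant in growing cells. The 72 ribosomal protein genes described here are those of the study's TOP gene list, and the study annotates more in the genome. They took 9.03% and 9.47% of the total RNA reads of replicates 1 and 2, but 3.73% and 3.67% of the RPF reads. When the 5 gene models with the largest RPF share were left out of the totals, the shares were 9.15% and 9.58% of total RNA and 4.59% and 6.21% of RPF. Summed over the 72 genes, TE was 0.698 in replicate 1 and 0.809 in replicate 2. By gene, 6 were higher in RPF (15.6% of all tested gene models were), 22 were lower (14.1% of all were), and 44 did not pass the test. On library totals 0 were higher and 56 lower (4.6% and 38.9% of all were).

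Among the 46 listed genes of the large subunit, with a median TE of 0.699 and 0.843, 5 were higher and 13 lower. RPLP1, a protein of the ribosomal stalk that recruits elongation factors, was the lowest. Its gene model GSOIDT00000922001 had 95 and 45 RPF reads beside 12982 and 21345 total RNA reads, for a TE of 0.158 and 0.325 and a log2 ratio of -2.13 ± 0.37 (SE, adjusted p = 5.74e-04). Both values lay below 1, though they differed from each other by 2-fold. Further stalk protein genes called lower included RPLP0 with a TE of 0.278 and 0.566 (log2 ratio -1.25 ± 0.32, adjusted p = 0.00839) and 1 of the RPLP2 models, GSOIDT00003622001, with 0.467 and 0.521 (-1.03 ± 0.28, adjusted p = 0.0126). RPL37A, a zinc-binding protein of the large subunit, had a TE of 0.406 and 0.357 (-1.40 ± 0.28, adjusted p = 0.00161), and its replicates were close to each other.

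At the other end of the large subunit, RPL6 had 586 and 143 RPF reads and a TE of 1.73 and 2.40 (log2 ratio 1.02 ± 0.28, adjusted p = 0.0130). RPL32 was higher still in its gene model GSOIDT00006992001, whose mRNA is *trans*-spliced, with 73 and 10 RPF reads and a TE of 2.65 and 1.72 (1.27 ± 0.24, adjusted p = 0.00114). With the replicate block the call on RPL32 was lost (adjusted p = 0.0968), as was that on RPL5 (TE 1.58 and 1.72, adjusted p = 0.0489, and 0.121 with the block). RPL13 (TE 1.96 and 1.69) and 1 of the 2 RPL4 models, GSOIDT00013547001 (1.79 and 2.14), kept theirs. On library totals all 5 of these large subunit calls were lost, and the ratios of RPL13 (-0.013) and RPL5 (-0.18) turned sign. Genes that share an ortholog did not all lie together. The second RPL4 model, GSOIDT00000869001, had a TE of 1.01 and 1.34 and was not called (adjusted p = 0.581). The second RPL32 model, GSOIDT00006994001, which is not *trans*-spliced, had 3 and 2 RPF reads and a TE of 0.417 and 1.61, which is too few reads to place it. The second RPLP1 model, GSOIDT00000470001, had a TE of 0.461 and 0.702, above the first in both replicates. It was also called lower (adjusted p = 0.0499, and 0.068 with the block). RPLP2 had a second model, GSOIDT00015549001, at 0.813 and 1.90, which was not called (adjusted p = 0.423). The treatment of reads that match both copies is not given in the sources used here, and the split between copies is uncertain.

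Among the 26 listed genes of the small subunit, with a median TE of 0.672 and 0.703, 1 was higher and 9 were lower. The higher one was the gene matched to RPS15P5, at 3.04 in replicate 1 and 3.00 in replicate 2 (562 and 94 RPF reads, log2 ratio 1.61 ± 0.29, adjusted p = 8.19e-04, and 0.0945 on library totals). RPS3, which lines the entry of the mRNA channel, came next with 1.65 in both replicates and just missed the threshold (0.73 ± 0.27, adjusted p = 0.0505). The lowest were RPS29, a small zinc-binding protein, with 65 and 11 RPF reads and a TE of 0.334 and 0.246 (-1.75 ± 0.32, adjusted p = 8.66e-04), and RPS7 with 0.381 and 0.508 (-1.18 ± 0.29, adjusted p = 0.00670). RPS6, the phosphorylated substrate of S6 kinase, had a TE of 0.608 and 0.800 and did not pass the test (adjusted p = 0.152).

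**Figure D4:**
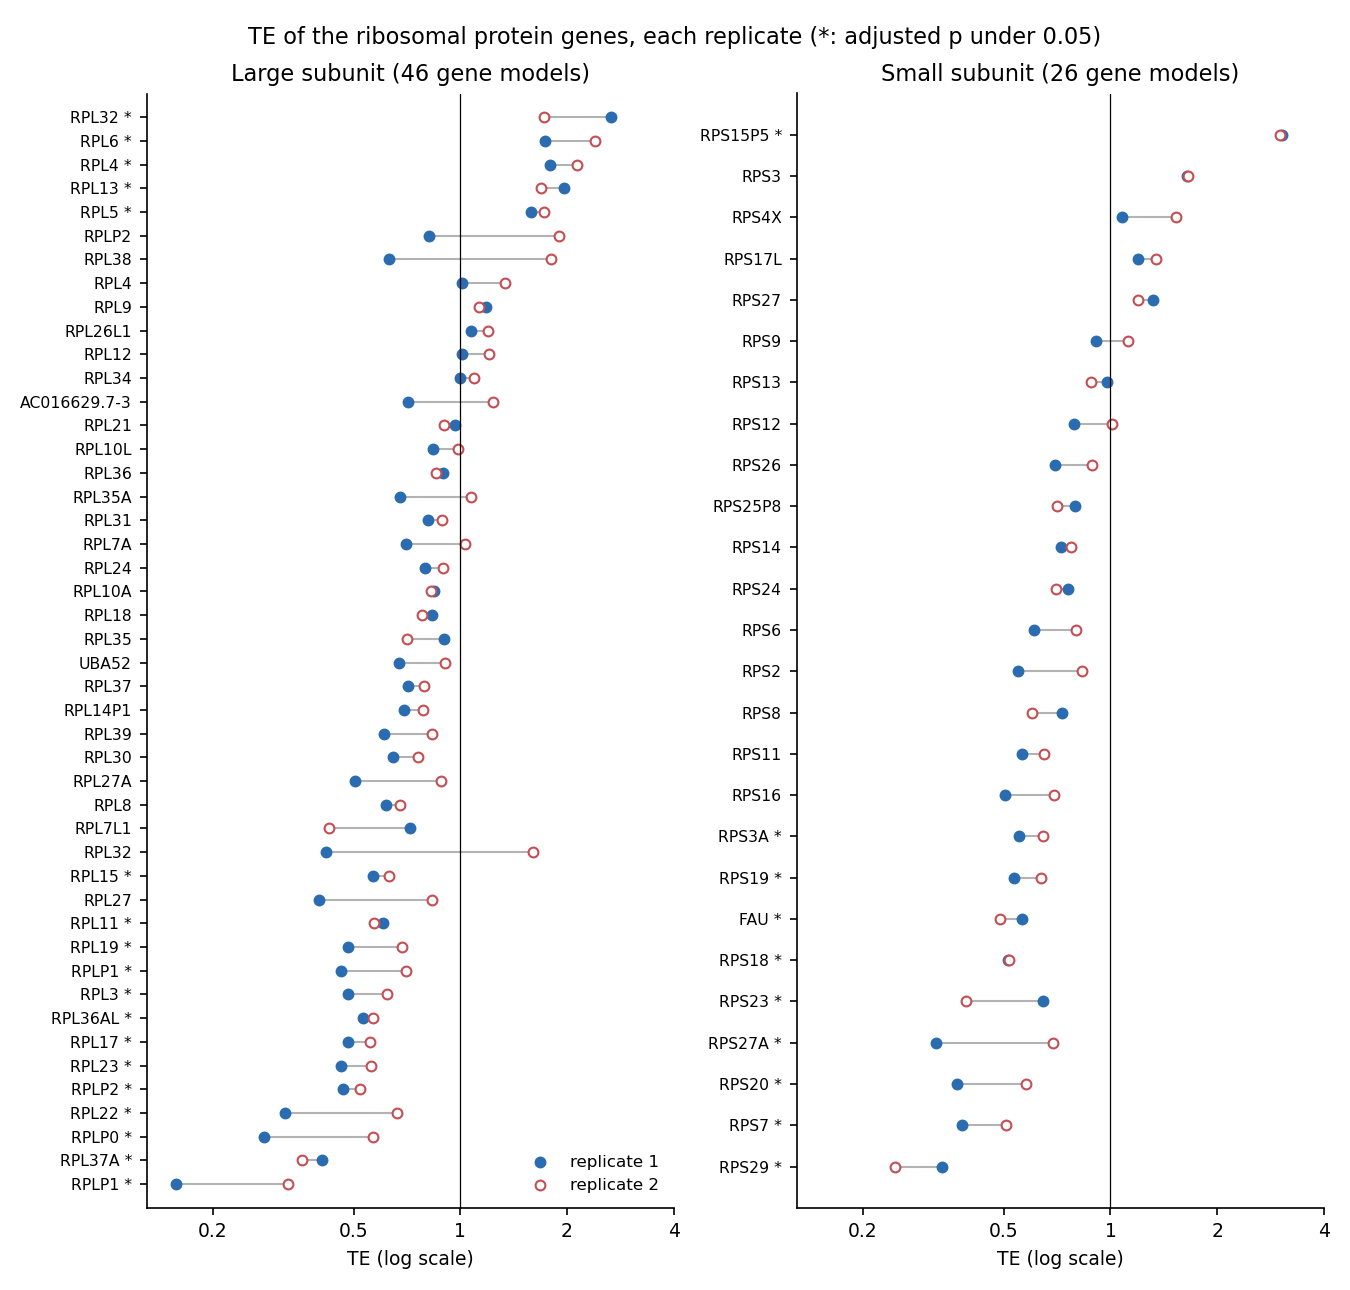
TE of each listed ribosomal protein gene model in replicate 1 (filled) and replicate 2 (open), on a log scale. Gene models are ordered by the fitted ratio within each subunit, with asterisks for an adjusted p under 0.05. Most genes lie to the left of 1 in both replicates, and a short run from RPL32 to RPL5 and RPS15P5 lies to the right of it.

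Ribosomal protein genes were also set beside other abundant mRNAs. The highest decile by total RNA held 70 of the 72 and 1390 other gene models, which can include ribosomal protein genes outside the list. The median TE of those others was 1.15 and 0.996, and 25.7% of them were higher and 18.3% lower. Of the 72, 62 lay below that median in replicate 1 and 49 in replicate 2. In both replicates 49 lay below it and 10 above it, a comparison added after the data were seen. The others were not counted in the same way. By replicate the median TE of the 72 was 0.697 and 0.813, against 0.870 and 0.686 for all gene models. In the fitted log2 ratio the 72 lay 0.22 lower than the median of all gene models. Without RPF replicate 1, when only the shallow RPF library is left, they lay 0.27 higher. Without RPF replicate 2 they stood at -0.39 relative to the median of all gene models. Without total RNA replicate 1 they stood at -0.27, and without total RNA replicate 2 at -0.22. With the replicate block 4 were higher and 16 lower (7.1% and 4.67% of all were). Of the 65 *trans*-spliced ribosomal protein genes 6 were higher and 21 lower, with a median TE of 0.699 and 0.801, and of the 7 others 0 were higher and 1 lower, with 0.561 and 0.830.

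The translation factors and other TOP genes were spread over both sides of 1. EEF2, the factor that moves the ribosome along the mRNA, had 2845 and 615 RPF reads and a TE of 1.91 and 2.46 (log2 ratio 1.11 ± 0.25, adjusted p = 0.00358). EEF1A1, which delivers aminoacyl-tRNA, had 0.828 and 1.81, on opposite sides of 1, and did not pass the test (adjusted p = 0.637). EEF1B2, an exchange factor for EEF1A1, was lower in its model GSOIDT00014951001 (31 and 5 RPF reads, TE 0.477 and 0.346, log2 ratio -1.20 ± 0.29, adjusted p = 0.00520), a call that was lost with the block (adjusted p = 0.0721), and its other model had 0 RPF reads beside 56 and 110 total RNA reads. EF1 delta had a TE of 1.42 and 0.697 and was not called (adjusted p = 0.315).

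Of the 4 genes for initiation factors, EIF3A, a scaffold of the factor eIF3, was higher (TE 1.66 and 2.02, log2 ratio 0.87 ± 0.29, adjusted p = 0.0341, and 0.0598 with the block). On library totals its ratio was -0.02 and its direction could not be called. EIF4B, which aids the unwinding of mRNA leaders, was lower, with 0.391 and 0.692 (-0.99 ± 0.33, adjusted p = 0.0338), and EIF3E and EIF3H did not pass the test. The cytoplasmic poly(A)-binding protein PABPC1, with 2.12 and 2.60 (1.22 ± 0.29, adjusted p = 0.00505), and the gene matched to the intermediate filament protein VIM, with 2.69 and 3.25 (1.55 ± 0.34, adjusted p = 0.00283), were higher, and in both genes the replicates lay close together. TPT1 (0.576 and 1.14), GNB2L1, the ribosome-bound protein also known as RACK1 (0.646 and 0.774), NAP1L1 (0.499 and 1.13) and the S6 kinase RPS6KB1 (0.716 and 0.234) were not called. On library totals the higher calls on EEF2, PABPC1 and VIM were lost (adjusted p = 0.518, 0.406 and 0.181). Over all 88 TOP genes, 10 were higher and 24 lower, against 15.6% and 14.1% of all gene models. With the block there were 7 and 17 (7.1% and 4.67% of all), and on library totals 0 and 66 (4.6% and 38.9% of all). The list is the study's, made of genes whose human orthologs have TOP mRNAs.

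Muscle drives the tail that pumps water and food through the house. Its list held 23 measured gene models with a median TE of 2.24 and 1.87, and 20 of the 23 lay above the median of all gene models. In all, 10 were higher and 0 lower, where 15.6% of all gene models were higher. The largest ratios belonged to 2 gene models with little total RNA. The one annotated from insect flight muscle, GSOIDT00016817001, had 248 and 26 RPF reads at 6.65 and 2.85 CPM of total RNA (TE 37.1 and 45.1, log2 ratio 5.48 ± 0.36, adjusted p = 7.52e-08), and alpha actin, GSOIDT00000757001, the thin filament protein, had 85 and 14 at 3.00 and 2.08 CPM (TE 28.2 and 33.2, 5.02 ± 0.32, adjusted p = 5.94e-08). These were the 2 named gene models with a TE above 10 in both replicates. Actins are a family of near-identical genes, so that the source of reads counted on 1 copy is uncertain.

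The other muscle calls were smaller. Ankyrin repeat domain 2, a stretch-responsive muscle protein, had a TE of 4.71 and 4.08 (log2 ratio 2.34 ± 0.37, adjusted p = 2.97e-04). The 2 gene models for cardiac myosin-binding protein C, which tethers thick filaments, had 2.58 and 3.27 (adjusted p = 0.00697) and 2.33 and 2.67 (adjusted p = 0.0104), and tropomyosin 4, which covers the myosin sites on actin, had 1.89 and 2.54 (1.07 ± 0.26, adjusted p = 0.00645). A tropomyosin alpha-1 chain model, GSOIDT00015647001, and a myosin heavy chain model, GSOIDT00011363001, were the lowest of the list, at 0.207 and 0.671 and at 0.585 and 0.797, and neither passed the test (adjusted p = 0.0668 and 0.0803).

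Total RNA of the muscle genes differed between the replicates, and so did their footprints. Of the 13 with at least 10 reads in each library, 12 had more total RNA in replicate 1, 10 of them by over 2-fold, where 39 of the 3056 such gene models did. The median difference, replicate 1 less replicate 2, was 1.22 on the log2 scale for total RNA, 1.01 for RPF and -0.20 for TE. The embryonic muscle myosin heavy chain model with the most reads, GSOIDT00010986001, stood at 1538 and 614 CPM in total RNA and at 3464 and 1270 CPM in RPF, for a TE of 2.25 and 2.07. In these whole-animal libraries fewer muscle cells and less RNA per muscle cell cannot be told apart. Without the block that model missed the threshold (log2 ratio 1.15 ± 0.42, adjusted p = 0.0523), and with the block it passed (adjusted p = 0.00738), as did 3 more myosin heavy chain models (TE between 1.85 and 2.59). Another, GSOIDT00010985001, passed both without the block and with it (adjusted p = 0.0470 and 0.0133). Its replicates were far apart, with 688 and 15 RPF reads and a TE of 3.68 and 1.04. With the block 11 muscle gene models were higher and 0 lower (7.1% and 4.67% of all were). Troponin fast isoform 2, 1 tropomyosin alpha-1 chain and creatine kinase M, called without the block, were no longer called with it (adjusted p = 0.144, 0.325 and 0.243). On library totals 3 were higher, the flight muscle model, alpha actin and ankyrin repeat domain 2, and 2 lower (4.6% and 38.9% of all were). In the fitted log2 ratio the median of the muscle list lay 1.4 above that of all gene models. Without RPF replicate 1 it lay 0.69 above it, and without RPF replicate 2 it lay 1.76 above it. Without total RNA replicate 1 the value was 2.1, and without total RNA replicate 2 it was 0.93.

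**Figure D5:**
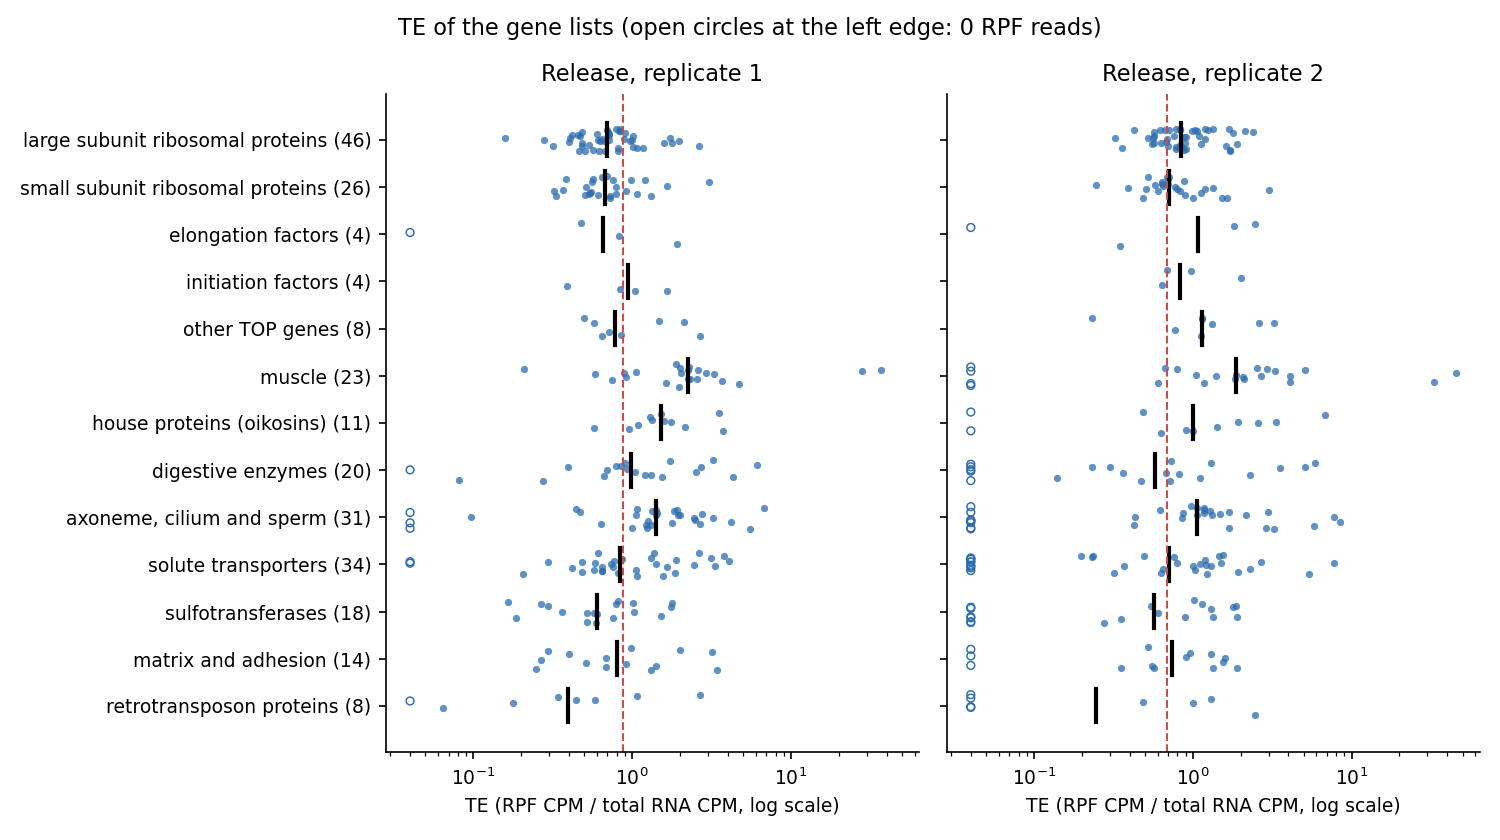
TE of each measured gene model by list in replicate 1 (left) and replicate 2 (right), on a log scale. Black bars are list medians, the dashed red line is the median of all tested gene models, numbers in parentheses are gene models, and open circles at the left edge have 0 RPF reads. Muscle genes lie to the right in both panels (medians 2.24 and 1.87), ribosomal proteins run from 0.158 to 3.04 and from 0.247 to 3.00 with most below 1, and the open circles are more frequent in replicate 2.

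The house is built of oikosins, secreted by the epithelium of the trunk. Of their 11 measured gene models 3 were higher and 1 lower (15.6% and 14.1% of all gene models were), with a median TE of 1.53 and 1.01. On library totals 1 was higher, oikosin 4a, and 1 lower (4.6% and 38.9% of all were). Oikosin 4a (GSOIDT00015848001) had 1386 and 244 RPF reads and a TE of 3.75 and 3.33 (log2 ratio 1.83 ± 0.27, adjusted p = 1.56e-04), and oikosin 7c had 3.52 and 2.57 (1.66 ± 0.24, adjusted p = 1.13e-04). In both the replicates differed less than either did from 1. The oikosin-like gene model GSOIDT00014788001 held the most RPF reads of any named gene model, 9394 and 1070, with a TE of 2.15 and 1.41 (0.86 ± 0.27, adjusted p = 0.0245), a call that was lost with the block (adjusted p = 0.131) and on library totals, where its ratio was -0.0034. The other 7 gave no call, with 4 to 475 RPF reads in replicate 1. Oikosin 6d (GSOIDT00008609001) was lower, with 715 and 136 RPF reads and a TE of 0.574 and 0.489 (-0.92 ± 0.26, adjusted p = 0.0156).

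Digestive enzymes are made in the gut of the feeding animal. Of 20 gene models 5 were higher and 2 lower (15.6% and 14.1% of all gene models were), with a median TE of 0.982 and 0.574. On library totals 2 were higher and 9 lower (4.6% and 38.9% of all were). Carboxypeptidase A2, which trims dietary peptides, had 752 and 79 RPF reads and a TE of 6.12 and 3.53 (log2 ratio 2.32 ± 0.33, adjusted p = 1.27e-04), and carboxyl ester lipase had 113 and 46 and a TE of 2.73 and 5.88 (1.91 ± 0.29, adjusted p = 1.79e-04). The replicates differed in opposite directions in these 2 enzymes, and both stayed well above 1. A chymotrypsin-like elastase, GSOIDT00006299001, was lower with 9 and 1 RPF reads beside 705 and 1106 total RNA reads (TE 0.275 and 0.140, -2.04 ± 0.42, adjusted p = 0.00208). Cathepsin L, a lysosomal protease chosen for its many footprints and no member of the list, had 5591 and 796 RPF reads and a TE of 3.70 and 2.53 (1.64 ± 0.26, adjusted p = 2.37e-04, and 0.056 on library totals).

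Axonemes are the microtubule cores of cilia and sperm tails. Of 31 gene models named for the axoneme, cilium or sperm 11 were higher and 3 lower, with a median TE of 1.41 and 1.07, where 15.6% and 14.1% of all gene models were. With the replicate block 5 were higher and 0 lower (7.1% and 4.67% of all were). On library totals 4 were higher and 5 lower (4.6% and 38.9% of all were). Tektin 3, a filament protein of the axoneme, had 426 and 49 RPF reads and a TE of 5.55 and 3.23 (log2 ratio 2.18 ± 0.32, adjusted p = 1.44e-04), and an axonemal dynein heavy chain, GSOIDT00013210001, had 4.20 and 2.88 (2.02 ± 0.30, adjusted p = 1.45e-04). Sperm associated antigen 6, a central apparatus protein, had the highest fitted ratio of the list (2.62 ± 0.32, adjusted p = 2.83e-05), though with 127 RPF reads in replicate 1 and 5 in replicate 2, which gave 6.74 and 1.69. A boule-like gene, of the family of RNA-binding proteins needed in the germ line and no member of the list, was also high, with 4.77 and 2.91 (2.18 ± 0.24, adjusted p = 1.14e-05). Spermatogenesis associated 4 stood at the low end of the list with 0 RPF reads in both replicates.

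The remaining lists were small, and their counts are read against 15.6% higher and 14.1% lower over all gene models. Of 34 solute transporters 6 were higher and 3 lower, close to those shares, and with the block 2 and 0. On library totals 1 was higher and 13 were lower (4.6% and 38.9% of all were). Solute carrier family 43 member 3 was the clearest (94 and 6 RPF reads, TE 4.08 and 1.46, log2 ratio 1.88 ± 0.28, adjusted p = 1.75e-04). Of 18 sulfotransferases, which modify glycans, 0 were higher and 4 lower, the lowest being a galactose-3-O-sulfotransferase, GSOIDT00004918001, with 4 and 0 RPF reads beside 518 and 771 total RNA reads (adjusted p = 0.00204). Of 14 matrix and adhesion genes 2 were higher and 3 lower, with protocadherin nu8 at 7 and 0 RPF reads beside 607 and 867 (adjusted p = 0.00354). Retrotransposon proteins had the lowest median of the lists, 0.395 and 0.244, 1.05 below the median of all gene models on the log2 scale, with 0 of 8 higher and 3 lower, but only 1 to 7 RPF reads in replicate 1 for those with any. With the block 0 sulfotransferases were higher and 1 lower, against 7.1% and 4.67% of all gene models. The block counts were 1 and 2 for matrix and adhesion genes and 0 and 1 for retrotransposon proteins. A single histone gene model of 4 passed the read minimum, with 5 and 4 RPF reads.

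Outside the lists, several named genes were far from 1 in both replicates. A gene model annotated as type alpha 6, GSOIDT00005231001, had 2146 and 266 RPF reads and a TE of 10.6 and 6.31 (log2 ratio 3.08 ± 0.31, adjusted p = 4.13e-06). The homeobox gene pitx1, a transcription factor that in vertebrates patterns the pituitary and hind limb, had 42 and 10 RPF reads and a TE of 6.03 and 9.19 (2.83 ± 0.36, adjusted p = 3.95e-05). A gene model for the glycolytic enzyme glyceraldehyde-3-phosphate dehydrogenase, GSOIDT00002377001, had 260 and 14 and a TE of 6.28 and 2.19 (2.37 ± 0.37, adjusted p = 2.28e-04), and the mitochondrial phosphate carrier had 3.44 and 4.24 (1.93 ± 0.33, adjusted p = 5.60e-04, and 0.0525 on library totals). Each was above the bulk in both replicates, with a spread of up to 3-fold between them.

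The entries of that table were also split by whether the study counted the transcript as stored in the oocyte and by the spliced leader. Of the 171 *trans*-spliced oocyte gene models 20 were higher and 34 lower, with a median TE of 0.729 and 0.716, and of the 195 oocyte gene models without a spliced leader 22 were higher and 37 lower, with 0.542 and 0.441. Of the 254 *trans*-spliced gene models outside the oocyte set 44 were higher and 34 lower (0.909 and 0.707), and of the 1233 without a spliced leader 183 and 188 (0.861 and 0.675). For all gene models the shares were 15.6% and 14.1%, and the median TE was 0.870 and 0.686. With the block the oocyte classes had 8 higher and 12 lower with a spliced leader and 12 and 11 without. With the block 7.1% of all gene models were higher and 4.67% lower. The median of *trans*-spliced oocyte gene models lay 0.23 below that of all gene models on the log2 scale, and 0.12 above it without RPF replicate 1. The oocyte class without a spliced leader had the lowest median in both replicates. It also had the lowest total RNA, a median of 11.9 and 11.5 CPM against 20.5 and 20.8 for *trans*-spliced oocyte gene models, and the part of that difference in the TE values was not tested.

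No footprint was found in either library for 793 of the 14595 gene models (5.43%). Their median total RNA was 2.26 and 2.27 CPM, against 16.3 and 16.1 for all tested. Among the 11713 gene models with at least 100 total RNA reads in each release library there were 156 (1.33%). For such genes the fitted ratio is no measure of size, and the limit set by 3 reads is given in its place. The mitochondrial twinkle protein, the helicase of mitochondrial DNA, had 0 RPF reads beside 487 and 744 total RNA reads, which allows a TE of up to 0.133 in replicate 1 and 0.622 in replicate 2 (adjusted p = 3.79e-04). GSOIDT00003877001 (503 and 739 total RNA reads) and GSOIDT00010171001 (524 and 621), without names, had limits of 0.128 and 0.626 and of 0.123 and 0.745. Polymerase delta interacting protein 2 (0.152 and 0.662), cold shock domain-containing protein E1, an RNA-binding protein (0.192 and 0.829), a leucine-rich repeat protein, the neuronal calcium sensor 1 and plectin-1 followed, with limits from 0.249 to 0.277 in replicate 1 and above 1 in replicate 2 for the last 3. A TE below 1 was thus set by replicate 1 alone for those 3. With the block, spermatogenesis associated 4, a choline or ethanolamine kinase and a gypsy polyprotein were no longer called (adjusted p = 0.0661, 0.0687 and 0.102).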

How the data were processed

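Counts of reads per gene model were used as the authors deposited them. By the study's methods, footprints were prepared with an ARTseq kit and total RNA was fragmented by heat, both after removal of ribosomal RNA. Adapters were clipped, reads of ribosomal and transfer RNA were removed with Bowtie2 2.1.0, the rest were aligned with TopHat2 2.0.13 and the Genoscope gene models, and reads on protein-coding genes were counted with featureCounts, with versions per the labels. The genome build and the treatment of strand and of reads with several matches were not stated in those notes or methods. Same-numbered RPF and total RNA libraries came from the same pool of animals by those methods, total RNA from a part of it. Their deviations between replicates correlated with r = 0.0682 across 14595 gene models.

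From these counts, RPF was compared with total RNA over the 4 release libraries with edgeR 4.0.16 (R 4.3.3): gene models with at least 100 reads over all 8 libraries, TMM scaling, the quasi-likelihood test (glmQLFit, glmQLFTest) with assay as the only term, and Benjamini-Hochberg adjustment over all 14595, with a threshold of 0.05. No read column was left without a sample. The SE is the log2 ratio over the root of its F value. The alternatives were a replicate block, library totals with and without the gene models over 1% of RPF reads, DESeq2 1.42.0, limma-voom (limma 3.58.1) with sample weights, no filter, at least 10 reads in each library, all 8 libraries in the fit, and each library left out. P-values rest on the spread between 2 pools per assay, with 1 variance per gene model for both assays. That variance is drawn toward a trend over all gene models (prior degrees of freedom 13.9). RPF is thus assumed to vary like total RNA in the main fit too, and p-values may be too small where it varies more. Limits for counts of 0 are 3 reads per library and cover counting error only.

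Genes were named by rule: the 3 largest changes in each direction, and the 10 largest among named genes, with TE of both replicates on the same side of 1 and at least 10 RPF reads (higher) or 100 total RNA reads (lower) per library, the 2 highest and 2 lowest of each list with at least 4 members, 9 translation genes, gene models over 1% of an RPF library and the 3 undetected ones with the most total RNA. Members of the ribosomal protein, TOP and muscle lists beside these, the second copies of an ortholog, RPS6, the oikosin-like gene model and cathepsin L were added after their values were seen. The members and lists were chosen with earlier results of these data known. None of the 14595 IDs matched the RefSeq table, so no coordinates or sequences are given. The authors' own comparison columns were not used. Not every gene that the rule names is reported here.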

Additional observations from a re-analysis of the deposited data

How the results depend on the processing

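The replicate block, which pairs the libraries of 1 pool of animals, left 1036 higher and 681 lower calls, and took the call from 12 of the named genes. Scaling to library totals gave 671 and 5681, and to totals without the gene models over 1% of RPF reads 1444 and 4103. DESeq2 called 1634 higher and 1308 lower, limma-voom 1118 and 468, a fit with all 8 libraries 1156 and 1006, and the 3056 gene models with 10 or more reads per library 523 and 641. With no filter there were 2388 and 2494. Leaving out the gene models over 1% of RPF reads before TMM, chosen after the data were seen, gave 2138 and 2496. With each library left out in turn the counts ran from 177 to 3324 higher and from 44 to 3549 lower. On library totals EIF3A stood at -0.024 and RPS9 at -0.89, the reverse of their sign after TMM, as were RPL5 (-0.18), RPL13 (-0.013), RPS3 (-0.17), EEF1A1 (-0.68), the oikosin-like gene model and others. The causes of these differences were not tested.

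Relative to all tested gene models (log2), the median in the main fit was -0.12 for the large subunit genes, -0.32 for the small subunit genes and 1.4 for muscle. Relative to the 3056 gene models with 10 or more reads per library alone, it was -0.84, -1.05 and 0.76. That read limit favours gene models with many footprints, and the median TE of the 3056 was 1.43 and 1.41. With each library left out, the large subunit ran from -0.39 to 0.29 relative to all tested gene models. The small subunit ran from -0.44 to 0.079 and muscle from 0.69 to 2.1. With 10 or more reads per library the lowest decile of total RNA had a median TE of 3.16 and 4.33 and the highest decile of replicate 1 had 1.00, and r between replicates was 0.786. Of the gene models with at least 100 total RNA reads per library 156 had no footprint. Leaving out an RPF library leaves 1, assumed to vary like total RNA. Depth limits replicate 2 of RPF the most, where 3 reads equal 14.8 CPM.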
